A study of Rattus norvegicus with 6 samples.

Results

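The array of this study carried 3588 probes whose identifier begins with MRAK, out of 24684 probes that are not controls, and each MRAK probe stood for 1 transcript. The prefix marks rat counterparts of mouse cDNAs that the array lists as long noncoding RNAs. Members were taken by that prefix alone. Each MRAK probe was printed as 3 spots on every array. None of the 3588 identifiers is paired with a gene symbol in the files or in the table of current rat RefSeq genes, so the transcripts are named here by identifier only.

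Long noncoding RNAs are transcripts that are not known to encode a protein. Some bind chromatin or transcription factors and act on genes nearby, others bind microRNAs or proteins and hold them away from their targets, and for most of them no function is known. As a class they are made at lower levels than messenger RNAs and often in few cell types, so that their level in a tissue depends on which cells the tissue holds. Total RNA of whole pancreas mixes acinar cells, duct and islet cells, fat, vessels, blood and immune cells, and fewer cells of a type cannot be told apart from less RNA per cell.

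The study compared pancreas of control rats with pancreas of rats with acute pancreatitis (AP), 3 deposited scans each. AP was induced with 4% sodium taurocholate, a bile salt, given backwards into the pancreatic duct at 1 mL/kg, and the rats were killed after 9 h; all rats were males of 6 weeks. The labels give no strain and do not say whether control rats had a sham operation, and each sample is called a replicate without further detail. RNA was measured on 1-colour Agilent arrays after removal of ribosomal RNA and labelling with random primers. Control scans 2 and 3 came from 1 array, and so did AP scans 2 and 3: deviations of single spots from their probe's mean correlated with r = 0.980 and r = 0.951 in these pairs, and with 0.192 to 0.695 in the remaining 13 pairs of scans. Each r is taken across 1796 spots of 1 slide, not across samples. All tests therefore compared 2 arrays with 2, and p-values measure only the spread between these arrays, which may be technical.

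Control and AP arrays occupied different places of 1 slide, and an effect of place cannot be told apart from the group. The scans differed in brightness, with a 75th percentile of 140 to 147 units for control and 70.15 to 77.7 units for AP. Levels below are log2 signals after that percentile of the scan was subtracted, which shifts every probe of the AP arrays up by the same amount relative to the control arrays. Listed markers of several cell types moved between the groups, and some moved against the label AP. Neutrophils enter the inflamed pancreas, yet 3 of 4 neutrophil markers on the array fell on AP arrays and 1 rose (Ncf1). Their summed level was 16.4 to 17.8 on control and 0.730 to 0.782 on AP arrays. Unlike the levels of single probes, the sums of markers in this paragraph are on the linear scale, so the brightest marker of a list weighs most. S100a8, 1 of the neutrophil markers that fell, made up most of the neutrophil sum on control arrays (3.93 and 4.06 in log2). It was not well above background on any AP scan. Of the fat cell markers 6 of 7 fell (sum 446 to 449 against 15.95 to 16.2), and all 4 erythroid markers fell (633 to 732 against 27.8 to 28.5). Hbb made up most of the erythroid sum, at 9.27 and 9.48 in log2 on control and 4.73 and 4.77 on AP arrays. All 8 markers of the lymphocyte list rose (4.47 to 4.97 against 45.5 to 48.0), among them Ptprc, which other leukocytes carry too. Of the 4 fibroblast markers that passed the threshold, out of 5, all fell (sum 75.6 to 93.7, the lower one without a usable value of Dcn, against 19.97 to 23.4), as did 2 of 3 tested islet markers and 1 of 2 tested duct markers. Of the 13 tested acinar markers 9 were called higher and none lower (65.1 to 65.3 against 79.5 to 89.9), but the scaling adds 0.957 in log2 to every difference, and without it 4 of those 9 and 8 of the 13 were below 0. The directions of the lymphocyte, fat cell, erythroid, neutrophil and fibroblast calls were the same without scaling. The acinar factors Ptf1a and Rbpjl were not well above background on any scan. The part of these shifts in the MRAK results was not tested, and the group names follow the labels throughout.

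MRAK transcripts were mostly dim. A probe counted as detected on a scan when a share of at least 0.5 of its usable spots was marked as well above background by the scanner software. By that measure 1628, 1349 and 1297 MRAK probes (45.4%, 37.6% and 36.15%) were detected on control scans 1, 2 and 3, and 998, 1078 and 1020 (27.8%, 30.0% and 28.4%) on AP scans 1, 2 and 3. Every AP scan detected fewer of them than every control scan, and control scan 1 detected more than control scans 2 and 3. Coding probes were detected more often, at 61.6% to 70.1% on control and 52.05% to 53.9% on AP scans. Probes for the MRuc identifiers, another group with mouse counterparts, lay close to the MRAK probes at 36.9% to 48.3% and 28.8% to 31.4%, and probes for ultraconserved elements (uc.) lay below them at 23.3% to 33.4% and 17.6% to 19.9%. In control the median MRAK signal was 13.9, 7.76 and 7.60 units by scan, and in AP it was 6.00, 5.61 and 6.27 units. On those scans the lowest signal of any detected probe was 10.6 to 13.5 units, so on 5 of the 6 scans the middle MRAK probe lay below the level at which any probe was detected.

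**Figure D1:**
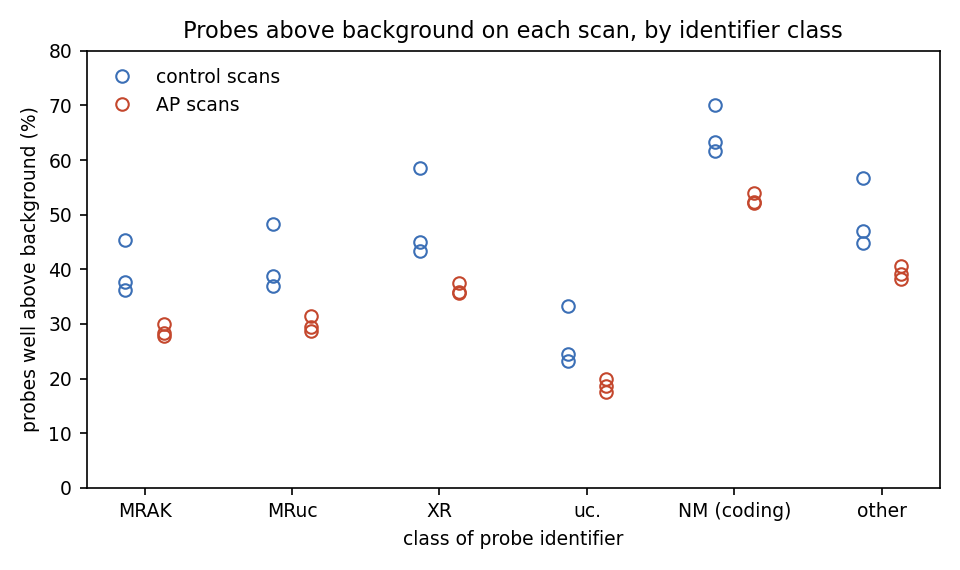
Percent of probes well above background on each of the 6 scans (y axis), by class of probe identifier (x axis); each circle is 1 scan, blue for control and red for AP, and scans 2 and 3 of a group are of 1 array. MRAK probes lie at 36.15% to 45.4% on control scans and 27.8% to 30.0% on AP scans, below coding probes on every scan.

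The members divided into 3 sets by detection. There were 1896 MRAK probes (52.8%) detected on no scan, against 26.9% of the coding probes and 35.0% of all probes. A further 381 were detected on 1 or 2 scans, and these 2 sets were not tested. The other 1311 were detected on at least 3 of the 6 scans and entered the fit, 921 of them on all 6 scans. For 17 MRAK probes every spot carried an outlier mark on at least 1 scan, and for 1 of them, MRAK081055, on all 6. Such a probe counted as not detected there, even where it was bright. MRAK138241, chosen after its values were seen, stood at 14208, 14627 and 15603 units on the control scans and at 13722 on the only AP scan with a usable spot.

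For the transcripts detected on all scans, the median difference between groups after scaling was larger than the median spread. Over the 921 probes detected on all scans, the SD between arrays of a group was 0.10 (log2, median) for control and 0.09 for AP, close to the 0.09 and 0.09 of coding probes. The SD between 2 scans of an array was 0.02, and the SD among the spots of a probe on 1 scan was 0.17. The size of the difference between AP and control had a median of 0.70. For probes detected on no scan the median SD was 0.22 between control arrays and 0.0698 between AP arrays. The size of their difference had a median of 0.95, above that of the 921 probes. These sizes include the 0.957 in log2 that the scaling adds to every difference.

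Of the 1311 MRAK probes tested, 448 were higher on AP arrays, 258 were lower and 605 did not pass the threshold (limma, Benjamini-Hochberg adjusted p below 0.05 over all 13220 probes tested). These are 34.2% higher and 19.7% lower, beside 26.9 percent called higher and 28.2 percent called lower among all probes tested, and 53.9% called in all beside 55.1 percent. Coding probes split the other way, with 24.3% higher and 31.4% lower, while MRuc (34.3% and 20.1%) and predicted RefSeq noncoding RNAs (XR; 30.9% and 21.2%) lay near the MRAK probes. The uc. probes were called higher in 34.9% and lower in 3.93%, and probes with other identifiers in 34.8% and 22.5%. The difference between classes was not tested. The median log2 difference of the tested MRAK probes was 0.32 (quartiles -0.32 and 0.82), beside 0.08 over all tested probes.

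The direction of that median rests on the scaling between arrays. Without scaling the median of the MRAK probes was -0.63 beside -0.88 over all probes, and 83 MRAK probes were called higher and 669 lower (5.81 percent and 59 percent of all probes). Across 2 other ways of scaling it was 0.26 (quantile, beside 0.05) and 0.48 (75th percentile over detected probes only, beside 0.24). In each of these 4 settings, the MRAK median lay above that of all probes. With normexp background correction and the 75th percentile, 106 were higher and 73 lower (7.08 percent and 13 percent of all probes). Against the 448 and 258 of the full data, leaving out control replicate 2 with its repeat scan left 247 higher and 188 lower (16.1 percent and 19.1 percent of all probes), and leaving out AP replicate 2 left 291 and 214 (18.5 percent and 22.7 percent). Leaving out control replicate 1 gave 338 and 190 (20.5 percent and 19.9 percent), and leaving out AP replicate 1 gave 341 and 214 (20.8 percent and 23.5 percent). A fit with the replicate number as a block called 19.5 percent of all probes higher and 22.2 percent lower, and one with crossed numbers 27.8 percent and 27.3 percent.

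Faint probes moved with the scaling step itself. The 1896 MRAK probes detected on no scan had a median difference of -0.01 before scaling and of 0.95 after it. Over the 921 probes detected on all scans, 395 were called higher and 143 lower in the fit of all 13220 probes, with a median of 0.49 beside 0.18 for all such probes. These are 42.9% and 15.5%, beside 31.5% and 26.6% of the 10005 probes of any class detected on all scans. Fitted alone, probes detected on all scans were called higher in 34.2 percent and lower in 28.5 percent of all cases (421 and 154 MRAK probes), and without any filter 27.6 percent of all probes were called higher and 13.6 percent lower. Of the 1311 tested probes 213 entered through control scans only and 14 through AP scans only, so the counts over the 1311 are not independent of the filter. Split by their mean signal into 4 bands of 230 or 231, the 921 probes gave 98 higher and 8 lower in the dimmest band, 91 and 37 in the next, 97 and 55 in the one above and 109 and 43 in the brightest. Among probes of every class at the same levels, 33.8% and 4.55% were called higher and lower in the dimmest band (MRAK 42.4% and 3.46%), 28.8% and 20.3% in the next (39.6% and 16.1%), 27.9% and 31.6% in the one above (42.2% and 23.9%) and 35.3% and 35.9% in the brightest (47.4% and 18.7%). Without scaling the medians of those bands were -0.45, -0.58, -0.58 and -0.17.

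**Figure D2:**
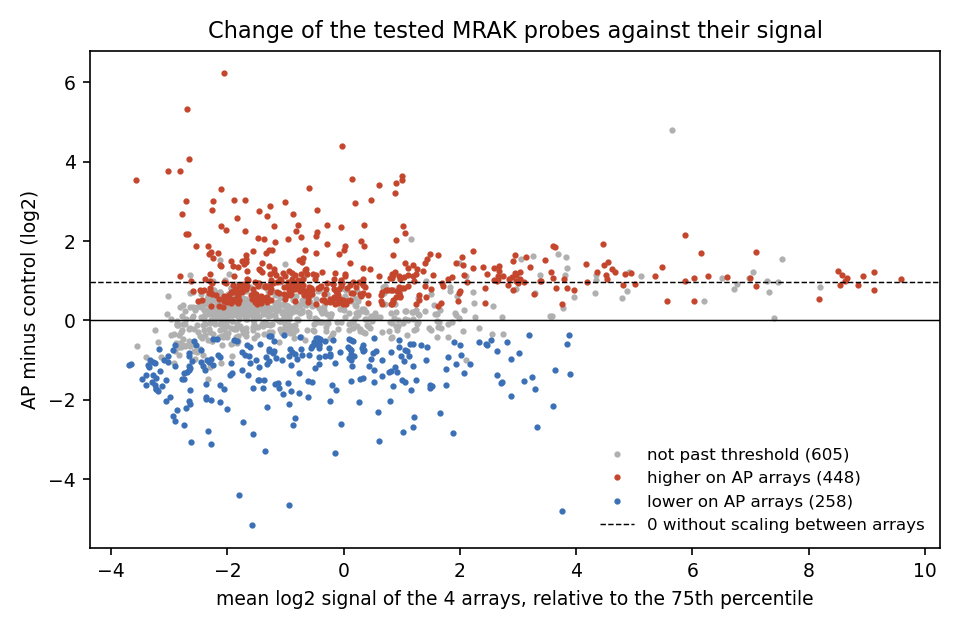
Log2 difference AP minus control (y axis) against the mean log2 signal of the 4 arrays relative to the 75th percentile (x axis) for the 1311 tested MRAK probes; red points passed the threshold as higher (448), blue as lower (258), grey did not pass (605). The dashed line marks where the difference would be 0 without scaling between arrays, and many red points lie below it.

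The size of the called differences was counted with a bound wherever a probe was at background on all scans of 1 group, which was so for 21 probes called higher and 97 called lower. A bound is the fold against the lowest signal of any detected probe, or against the dim probe's own signal where that is higher. Of the 448 probes called higher, 211 differed by more than 2-fold, 50 by more than 4-fold and 15 by more than 8-fold. These are 16.1%, 3.81% and 1.14% of the tested MRAK probes, beside 13.4%, 3.70% and 1.44% of all tested probes. Of the 258 called lower, 103, 25 and 5 passed the same sizes (7.86%, 1.91% and 0.381%, beside 14.2%, 4.61% and 1.94%). The smallest differences called were 0.34 and -0.35 in log2.

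Among the 10 transcripts called with the largest fitted rise, 6 were not well above background on any control scan. Their fitted differences have no exact size and set no order among them, so a bound is given in place of a fold. These 6 entered the test through AP scans only, so their p-values are not independent of the filter. MRAK040987 stood at -5.35, -4.98 and -4.97 on control scans 1 to 3, where it was not well above background, and at 1.09, 1.05 and 1.01 on AP scans 1 to 3. It was at least 27.8-fold higher on AP arrays (adjusted p = 0.000625; limma). Its 3 spots lay at 3.12 to 6.63 units on the control scans and at 142 to 187 on the AP scans, so every spot separated the groups. MRAK086854 stood at -5.39, -5.41 and -5.26 on control and at -0.02, -0.03 and -0.03 on AP scans, at least 13.1-fold higher (adjusted p = 0.000602).

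MRAK161211 had the largest rise among the called transcripts detected on every scan. It stood at -2.29, -2.16 and -2.19 on control and at 2.25, 2.07 and 2.07 on AP scans (30.0, 31.5 and 31.9 units against 370, 295 and 311), 21.0-fold higher (log2 difference 4.40 ± 0.12, SE, n = 2 per group, limma adjusted p = 0.000625). MRAK087360, MRAK051310 and MRAK044677, detected on every scan too, were 12.4-fold, 11.9-fold and 11.6-fold higher. MRAK087360 rose from -0.71, -0.89 and -0.92 to 2.84, 2.80 and 2.80, MRAK051310 from -1.53, -1.68 and -1.85 to 2.01, 1.84 and 1.84, and MRAK044677 from -0.82, -0.70 and -0.70 to 2.83, 2.74 and 2.69. They were chosen by size of change, so the lack of overlap between their groups is a description. MRAK141115, MRAK150047, MRAK158581 and MRAK040942 completed the 10 chosen by fitted difference, a choice that leaves out transcripts with higher bounds, such as MRAK086329 and MRAK080501 described further on. All 4 were not well above background on control scans and were at least 8.66-fold, 6.96-fold, 6.04-fold and 3.78-fold higher. In MRAK040942 the AP arrays differed, at -1.43 on scan 1 and -2.18 and -2.23 on scans 2 and 3. On AP scan 2 its spots read 4.29, 33.5 and 26.1 units, so 1 spot out of the set was at background.

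Among the 10 transcripts called with the largest fitted fall, 7 were not well above background on any AP scan, and these 7 again have bounds and no order. The 7 entered the test through control scans only, so their p-values are not independent of the filter. MRAK135044 and MRAK143002, given further on, have higher bounds than MRAK075675, MRAK086364 and MRAK143189 among the 7. MRAK132628 was detected on every scan and stood at 6.17, 6.12 and 6.14 on control and 1.33, 1.38 and 1.36 on AP scans, 27.8-fold lower (-4.80 ± 0.09, SE, n = 2 per group, limma adjusted p = 0.000602). Its spots read 8694 to 11680 units on control and 169 to 236 on AP scans. MRAK148690 stood at 0.94, 1.08 and 1.05 on control scans, was not well above background on AP scans (-4.14, -4.25 and -4.10), and was at least 11.4-fold lower (adjusted p = 0.000602). MRAK159688, a transcript that others studied in morphine tolerance of rats, stood at 1.26, 1.502 and 1.496 on control and at -3.40, -3.33 and -2.95, not well above background, on AP scans, at least 14.8-fold lower (adjusted p = 0.000719).

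Of the other 7 in this set, MRAK003849 and MRAK011425 were detected on AP scans as well, the first on 2 of 3. MRAK003849 fell from 1.43, 1.60 and 1.58 to -1.90, -1.66 and -1.81 (a difference of -3.33), and MRAK011425 from 2.15, 2.13 and 2.12 to -0.84, -0.995 and -0.96, 8.26-fold. MRAK014000, MRAK046545, MRAK075675, MRAK086364 and MRAK143189 were not well above background on AP scans and were at least 7.54-fold, 6.91-fold, 3.44-fold, 2.66-fold and 5.19-fold lower. None of the 20 transcripts with the largest change reversed under any of the 18 alternative settings, and 17 kept their call in each setting in which they could be fitted. The size did not keep: normexp background correction lowered it below the bounds given here, to 1.73 (75th percentile) and 1.60 (quantile) in log2 for MRAK040987, to 1.26 and 1.02 for MRAK086854 and to -1.35 and -1.497 for MRAK148690. The bright MRAK132628 stayed at -4.58 and -4.41, and MRAK161211 stood at 2.07 and 2.15. MRAK075675, MRAK086364 and MRAK143189 lost it with normexp and the 75th percentile, at -0.30, -0.27 and -0.56 (adjusted p = 0.417, 0.476 and 0.138).

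**Figure D3:**
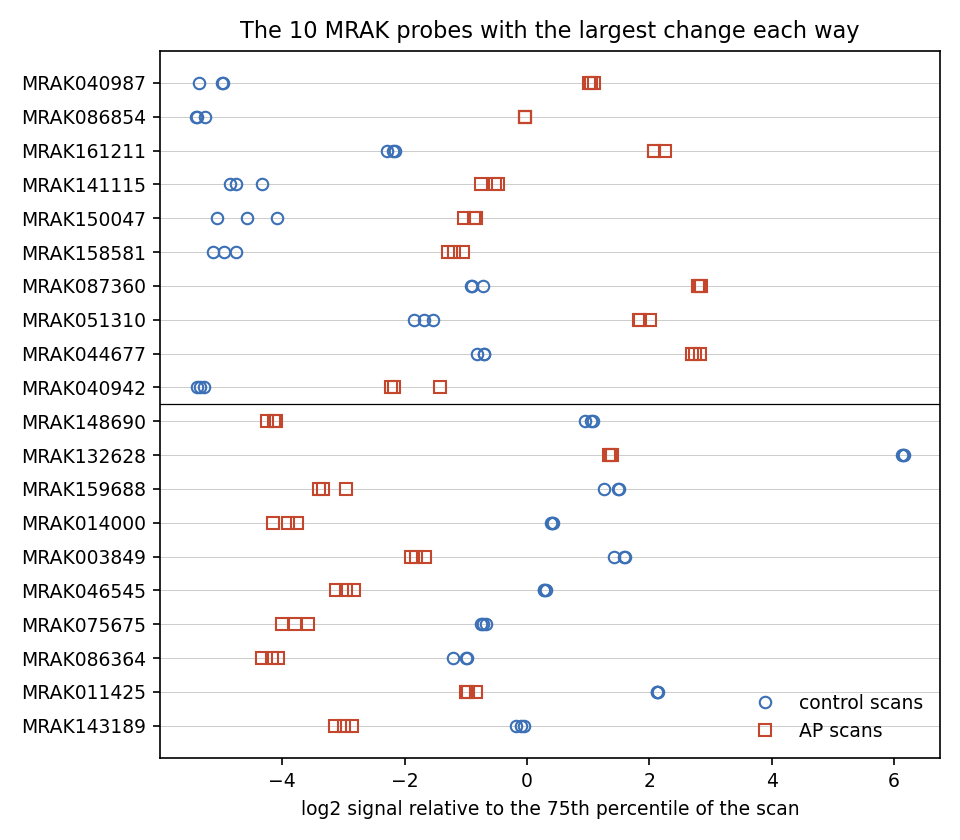
Log2 signal relative to the 75th percentile of the scan (x axis) for the 10 MRAK probes called with the largest fitted rise (above the line) and the 10 with the largest fitted fall (below it); circles are the 3 control scans and squares the 3 AP scans. The 20 probes were chosen by size of change, so the lack of overlap between the groups is a description. MRAK132628 is the brightest of them on control scans, at 6.12 to 6.17.

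Detection in 1 group alone was far more often on the side of the control scans. There were 213 MRAK probes (5.94%) well above background on all 3 control scans and on no AP scan, and 14 (0.390%) the other way. Among all 24684 probes the shares were 6.79 percent and 0.531 percent, so the MRAK probes lay near the background of the array in both directions. Coding probes gave 7.32% and 0.437%. These sets were chosen by their signals in both groups, and their differences are a description.

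Most of the 213 were close to the limit of detection. Their mean signal on control scans had a median of 29.1 units (14.5 to 388), and on AP scans 10.8 units (3.86 to 22.8). Of the 213, 97 were called lower after scaling, 109 did not pass the threshold and 7 were called higher, although they were detected on control scans only. MRAK166273, 1 of these 7 and chosen after its values were seen, read 18.0, 13.1 and 18.6 units on control scans and 18.3, 15.1 and 17.3 on AP scans, which overlap before scaling, and it was higher by 0.99 after scaling (limma adjusted p = 0.00556). The rule that chose the 213 favours falls. Among probes of every class, 1675 were detected on all control scans and on no AP scan. Of the tested probes of every class at background on all scans of 1 group, 865 were called lower and 160 higher. The MRAK probes among these were 97 called lower and 21 called higher, and the 21 include the 14 detected on AP scans only. A fold could be bounded above 1 for 117 of the 213 (median at least 1.42-fold), above 2-fold for 33 and above 4-fold for 10. Just outside the set, 63 probes detected on all control scans and on 1 AP scan had medians of 34.9 units on control and 18.9 on AP scans, and 59 detected on 2 control scans and no AP scan had 19.3 and 11.5.

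The brightest of the 213 fell by clear margins. MRAK159688, MRAK148690, MRAK014000 and MRAK046545 are described above. MRAK135044 read 191, 202 and 210 units on control and 17.1, 16.1 and 15.2 on AP scans, at least 6.25-fold lower after scaling. MRAK143002 read 192, 188 and 196 against 17.9, 17.8 and 18.1, at least 5.52-fold lower. MRAK132842 and MRAK031823 were at least 4.32-fold and 3.62-fold lower. In all 8 the AP signals were under 23 units on every scan. MRAK143002, MRAK132842 and MRAK031823 lost their call with normexp and the 75th percentile (adjusted p = 0.103, 0.178 and 0.354), and MRAK159688, MRAK148690, MRAK135044, MRAK014000 and MRAK046545 kept it in every setting in which they could be fitted.

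Few transcripts, 14 in all, were detected on AP scans only. Their mean signal had a median of 36.2 units on AP scans (20.1 to 153) and 8.42 on control scans (3.54 to 16.6). All 14 were higher before and after scaling. After scaling, the median of their bounds was 6.09-fold. Besides the 6 already named, MRAK086329 read 13.3, 15.0 and 13.8 units on control and 58.1, 55.9 and 59.1 on AP scans, at least 8.13-fold higher. MRAK080501 read 11.7, 9.60 and 10.1 against 44.6, 44.8 and 44.0, at least 7.61-fold higher, and MRAK087326 read 15.0, 8.60 and 9.28 against 37.9, 42.6 and 45.2, at least 6.14-fold higher. Just outside, 10 probes detected on all AP scans and on 1 control scan had medians of 28.4 units on AP and 16.4 on control scans.

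**Figure D4:**
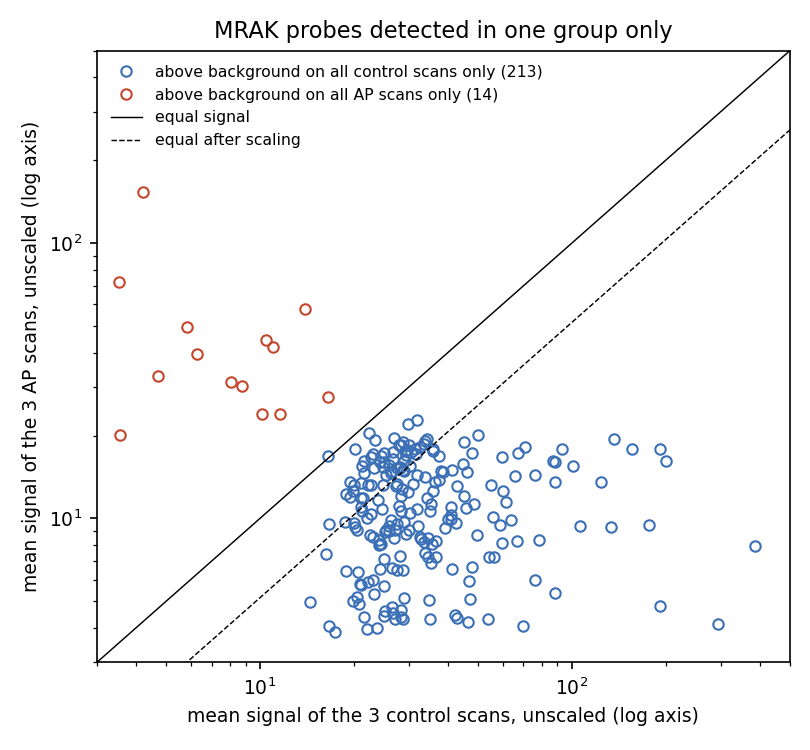
Mean unscaled signal of the 3 AP scans (y axis, log scale) against that of the 3 control scans (x axis, log scale) for the 213 MRAK probes detected on all control scans only (blue) and the 14 detected on all AP scans only (red). The solid line marks equal signals and the dashed line signals that are equal after scaling; many blue points lie near the dashed line, and all red points lie above the solid line.

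The MRAK probes with the highest signals differed little before scaling. MRAK137097 had the highest mean log2 signal, at 9.02, 9.12 and 9.11 on control and 10.07, 10.16 and 10.16 on AP scans, 2.07-fold higher (1.05 ± 0.10, SE, n = 2 per group, limma adjusted p = 0.00412), but its unscaled difference was 0.09. MRAK133704, MRAK020064, MRAK082347 and MRAK035417 were 2.35-fold, 2.18-fold, 1.87-fold and 1.71-fold higher after scaling and differed by 0.27, 0.17, -0.06 and -0.18 before it. None of the 5 passed the threshold without scaling (limma adjusted p = 0.109 to 0.678), and MRAK082347 and MRAK035417 turned in sign there. All 5 also missed it with normexp and the 75th percentile (0.36 to 0.74, adjusted p = 0.0629 to 0.366). With quantile normalization 4 missed it (MRAK137097 0.42, MRAK020064 0.39, MRAK035417 0.12 and MRAK082347 0.09), and the same 4 missed it with the deposited values (adjusted p = 0.0603 to 0.532). Signals of different probes also depend on the probe, so their order is not an order of abundance.

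Besides MRAK159688, 3 transcripts with MRAK names that have been studied elsewhere were named, and their signals ran from 4.04 to 65.3 units. MRAK088388, studied in liver fibrosis, stood at -1.17, -1.17 and -1.28 on control and -0.36, -0.28 and -0.33 on AP scans, 1.83-fold higher (0.87 ± 0.09, limma adjusted p = 0.00508), with 60.0 to 65.3 units against 57.8 to 60.7, and it was -0.09 without scaling (adjusted p = 0.529) and 0.44 with normexp and the 75th percentile (adjusted p = 0.226). MRAK009713, studied in nerve injury pain, read 31.5, 27.3 and 28.3 units on control scans and 6.4, 4.04 and 4.99 on AP scans, where it was not well above background. It was at least 1.16-fold lower (limma adjusted p = 0.00614) and stood at 0.15 with normexp and the 75th percentile (adjusted p = 0.697). MRAK009713 and MRAK052686 entered the test through control scans only, so their p-values are not independent of the filter. MRAK052686 read 37.1, 29.5 and 29.8 against 13.2, 6.66 and 8.26 units, not well above background on AP scans, and did not pass the threshold (-0.79 ± 0.30, limma adjusted p = 0.0973). It stood at 0.20 with normexp and the 75th percentile (adjusted p = 0.593), and it was called lower in 4 other settings, among them no scaling (-1.74, adjusted p = 0.0125) and without AP replicate 1 (-1.15, adjusted p = 0.0348).

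The probes with the largest SD between arrays of a group, MRAK049062, MRAK046473, MRAK013747 and MRAK002255, each had spots on very different levels within 1 scan. For MRAK049062 the array values were 1.62 and 4.87 in control and 6.89 and 9.23 in AP, a difference of 4.81 ± 1.47 (limma adjusted p = 0.0599). On control scan 1 its spots read 454, 20930 and 20820 units in rows 19, 375 and 522 of the array. The scanner software had marked the bright spots there as outliers, so the value of that scan rested on the dim one. With the median of all 3 spots the difference was 1.48 (adjusted p = 0.00229). For MRAK046473 on control scan 1 the spots in rows 29 and 40 read 562 and 559 units and that in row 478 read 2589, while on control scan 2 all 3 read 2333 to 2588. The bright spot of control scan 1 carried an outlier mark.

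Low spots of this kind lay near 1 edge of the array. Among the 2763 spots of the 921 probes detected on all scans, 26 to 41 per scan differed more than 4-fold from the middle spot of their probe, and 26 to 38 of these were below it. Rows 1 to 100 of 532, a limit chosen after the values were seen, hold 16.8% of these spots and held 68.8% to 96.4% of the deviating ones on each scan. Only 7 to 11 of the deviating spots per scan carried an outlier mark. In all, 68 of the 921 probes (7.38%) had such a spot on at least 1 scan. The counts over all MRAK probes moved little with the median of all spots in place of the mean of unmarked ones, at 476 higher and 266 lower (27.5 percent and 28.3 percent of all probes).

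**Figure D5:**
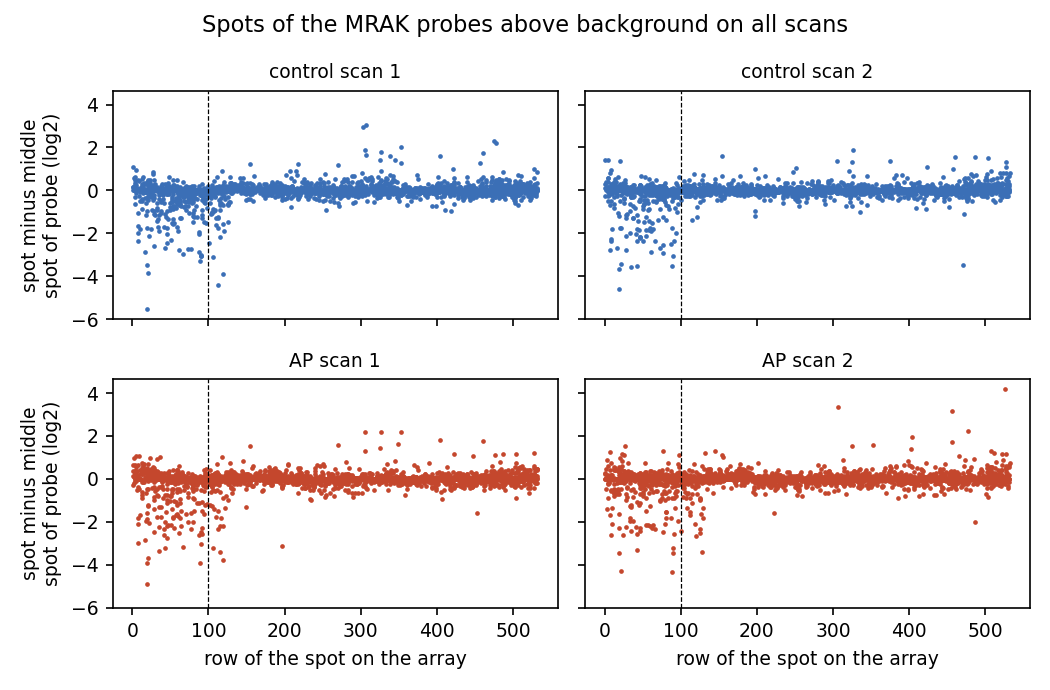
Log2 signal of each spot minus the middle spot of its probe (y axis) against the row of the spot on the array (x axis), for the 2763 spots of the 921 MRAK probes detected on all scans; 1 panel for scans 1 and 2 of each group. Spots far below 0 gather left of the dashed line at row 100 on all 4 arrays, while most spots elsewhere lie near 0.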

How the data were processed

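Agilent Feature Extraction 11.0.1.1 wrote the 6 scanner tables, and the array design was annotated on rn4, per the file headers. The deposited signal is an intensity per spot after background subtraction and detrending, with no scaling between arrays. The deposited table of normalized values is in log2 and served as an alternative; the sources used here do not state its normalization. The scanner's marks are 0 or 1 per spot in the deposited files.

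Spots that the scanner marked as outliers, by uniformity or population, did not enter. For each probe the mean log2 signal of its spots was taken relative to the scan's 75th percentile of non-control probes. Scans whose spot deviations correlated above 0.9 were averaged as 1 array. Probes detected on at least 3 scans were fitted with limma 3.58.1 (R 4.3.3; lmFit and eBayes, two-sided, 2 residual degrees of freedom) and p-values adjusted over all 13220. A fold against a group not well above background is a bound, set by the lowest signal of a detected probe or, where that is larger, by the signal of the dim probe itself. No spot was saturated. In 2 tested MRAK probes (MRAK137162 and MRAK138241) a group had a value on 1 array only.

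The probes named are the 10 called with the largest change each way, the 8 brightest detected in 1 group only each way, the 5 with the highest signal, the 3 with the largest SD in each group among those detected on all scans, and 3 studied elsewhere. Members and lists were chosen with earlier results of these data known. The planned mean signal is not among the columns, so normexp (offset 50) used the median signal of spot and background. The fit was tested on simulated data. Figures were drawn with matplotlib 3.10.9 under Python 3.11.15. Sequences and positions of the MRAK transcripts were not used here.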

Additional observations from a re-analysis of the deposited data

How the results depend on the processing

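Without scaling between arrays the median log2 difference of the MRAK probes was -0.63, with 83 higher and 669 lower; MRAK035417, MRAK082347 and MRAK088388 turned to -0.18, -0.055 and -0.088, by construction, since a constant was no longer added. With normexp and the 75th percentile 106 were higher and 73 lower, and MRAK009713 and MRAK052686 turned to 0.15 and 0.20; the cause was not tested. The median was 0.48 with the percentile over detected probes, 0.066 with normexp and quantile normalization, 0.64 with no filter (1298 higher, of 3586 fitted) and 0.49 over probes detected on all scans (154 lower, fewer probes tested). Leaving out each array gave 247 to 341 higher, 188 to 214 lower and medians of 0.21 to 0.43; the lone array left is assumed to vary like the others. With the weaker scanner mark of a positive and significant signal, 119 MRAK probes were detected on all control scans only, 6 on all AP scans only and 1616 on all 6. Probes of every class were not counted with that mark, so these counts cannot be set against the array as a whole. Of the 706 calls, 627 were also made with the deposited values.

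Replicate numbers do not pair the arrays by any label, and deviations of same-numbered arrays correlated at -0.21 over 13149 probes. With the replicate block 316 MRAK probes were higher and 213 lower; the crossed pairing, added after seeing the data, gave 464 and 250. The slide as a block was not run, since all arrays lie on 1 slide. Counts of higher and of lower probes stayed within 1.5 times with the scan session as a block, with 6 separate scans, with trended and robust variances and with the deposited values. For the 39 named probes, 636 of 679 refits kept call and direction, 25 lost the call, 13 gained it and 5 reversed. Arrays of 2 per group and signals near background limit all values.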

Other observations

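MRAK probes in the block of lowest identifier numbers were detected on all 6 scans more often than those of any other block. Of the 173 from MRAK002255 to MRAK009939, 39.3% were detected on all 6 scans. The lowest share was 19.9%, of the 554 from MRAK040004 to MRAK049966. Detection did not follow the numbers further. The next block, from MRAK010009 to MRAK019982, stood at 25.8%, beside 25.7% of all MRAK probes, and that from MRAK160236 to MRAK169884 at 33.7%. Of the tested probes in the first block, 18 were higher and 35 lower on AP arrays (19.4% and 37.6%, beside 26.9% and 28.2% of all tested probes, with a median log2 difference of -0.21). The 179 tested in the block from MRAK040004 gave 67 higher and 22 lower (37.4% and 12.3%, with a median of 0.48). The first block was the only one of 14 such number blocks with a median below 0 after scaling. The blocks were formed after the values were seen, the files do not give the source tissue of the mouse cDNAs, and the difference was not tested.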
